A study of Homo sapiens with 6 samples.

Results

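GEM, RRAD, REM1 and REM2 make up the RGK family (named for Rad, Gem and Kir), and their transcripts were followed in human cardiomyocytes with and without the kinase STK25. These 4 genes, of 35793 listed in the table, were taken as a family by symbol, and the family was chosen with its knockout minus wild-type differences already known. Those differences are therefore given below as a description, with no test. Of the 4 genes, 3 had a mean normalized count of at least 10 and REM1 had no read in any library.

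RGK proteins are small GTPases of the RAS branch that restrain high-voltage-activated calcium channels. They bind the beta subunit of the channel and lower the current, by reducing the number of channels at the surface and by holding those that remain in a closed state. In the heart, RRAD is the member best known for holding back the L-type current, and its phosphorylation by protein kinase A releases the channel when beta-adrenergic receptors are stimulated. GEM was first described as a gene induced by mitogens. REM1 and REM2 are the other members, the latter known mainly from neurons. Unlike RAS itself, the family carries no prenylation box at its end and ends instead in a short conserved stretch with a cysteine.

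The last 36 coding bases of 3 members are shown because they carry that shared ending. They were read from the GENCODE 29 transcripts on GRCh38, 5′ to 3′ on the coding strand without the stop codon, with the cysteine codon in capitals. For RRAD the stretch is chr16:66922079-66922114 on the minus strand, for REM1 chr20:31484392-31484427 on the plus strand and for REM2 chr14:22886871-22886906 on the plus strand.
RRAD: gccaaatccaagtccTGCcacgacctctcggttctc
REM1: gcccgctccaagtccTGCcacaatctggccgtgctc
REM2: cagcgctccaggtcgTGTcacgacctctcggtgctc
In all 4 members, GEM included, the codon at position 7 from the end encoded cysteine, and none had a cysteine codon at position 4 from the end, where the prenylation box of RAS proteins has one. Of the 36 bases, RRAD shared 29 with GEM, 27 with REM1 and 26 with REM2. The least alike were GEM and REM1, with 23 identical bases. Whole coding sequences held 308 codons before the stop in RRAD, 296 in GEM, 298 in REM1 and 340 in REM2. The members' transcripts had no 31-base word in common, and RRAD, GEM and REM2 shared none with any other gene, so that reads of those 3 could be told from each other and from the rest of the transcriptome. REM1 shared 101 of its 1635 words, or 6.18%, with DEFB124, which overlaps it on the other strand.

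The study compared WTC11 induced pluripotent stem cells (an established line, widely used as a wild-type reference) with an isogenic homozygous STK25 knockout line made by CRISPR/Cas9. Both lines were differentiated to cardiomyocytes, and total RNA was sequenced at day 15 from 3 biological replicates of each, 3 wild-type (WT) and 3 STK25KO. No other treatment was given, and the knockout was 1 cell line, so line and genotype cannot be told apart.

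Libraries held 22443904 to 53224112 reads assigned to genes. STK25 itself was at 8874, 6774 and 8710 normalized counts in WT and at 3906, 3434 and 3820 in STK25KO, a log2 difference of -1.12 (SE 0.19, limma adjusted p = 0.00903) that missed the 0.05 threshold without WT replicate 1 (adjusted p = 0.0609). WT replicate 2 and STK25KO replicate 1 stood apart from the others of their genotype along the second principal component, which held 24.1% of the variance against 55.6% for the first, which separated the genotypes. Between genotypes, 1982 of 15536 genes tested passed an adjusted p of 0.05 (12.8%), 927 higher in STK25KO (5.97%) and 1055 lower (6.79%). Single libraries moved that count: it was 796 without WT replicate 1, 916 without WT replicate 3, 1292 without STK25KO replicate 2 and 962 without STK25KO replicate 3. With totals made equal, the share of calls that were higher in STK25KO went from 46.8% to 27.4% and the median of all genes moved to -0.27.

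Markers of cardiomyocytes were high in all libraries, with the 10 listed genes summing to 904955 to 954169 in WT and 1102930 to 1230600 in STK25KO. Limma called 1 of these, NKX2-5, as lower, with 6 at an unadjusted p under 0.05. EdgeR called 2, NKX2-5 and MYH6, both lower. DESeq2 called 6, with 4 higher (ACTN2, MYH7, TNNC1 and TTN) and 2 lower (MYH6 and NKX2-5). Other marker lists held calls in differing numbers, counted below out of the genes listed, tested or not. Over all genes tested, 5.97% were called higher in STK25KO and 6.79% lower. A list with 1 call in a direction is not read as a change of that list. Smooth muscle genes summed to 81180 to 91867 in WT and 494352 to 541642 in STK25KO, with 5 of 6 higher, while 5 of 6 ventricular genes were lower. The sum of the ventricular list was nonetheless higher (97335 to 180100 in WT against 180372 to 294543 in STK25KO), and its remaining gene, MYH7, differed by 1.42 (limma adjusted p = 0.0639) with no overlap and was called higher by DESeq2. Neural genes had 3 of 7 higher (sums of 68.3 to 120 against 467 to 827), epicardial genes 2 of 6 (249 to 332 against 1111 to 1298), fibroblast genes 3 of 8 higher and 1 lower (12924 to 26543 against 7871 to 16398). For the atrial or nodal list 2 of 10 were higher and 2 lower (602346 to 998621 against 899840 to 2387670). Most of that sum was MYL7, which limma did not call (means of 541523 in WT and 1481020 in STK25KO), while NPPA was called lower (188039 and 36780). For the skeletal muscle list 1 of 6 was higher and 1 lower (36197 to 40145 against 112706 to 116895), with MYOD1, MYF5 and PAX7 at 0 throughout. Most of that sum was the higher gene, CKM (means of 25506 and 108307). Of the pluripotency genes 1 of 6, TDGF1, was higher (sums of 960.5 to 1043 against 3098 to 4469). Most of that sum was TDGF1 itself (means of 560 in WT and 3516 in STK25KO), and DESeq2 also called ZFP42, as lower. In the endoderm list 1 gene of 6 was lower (2834 to 4885 against 2323 to 2529), with FOXA2 at 0. Limma called 0 of 6 endothelial genes (sums of 173 to 477 against 418 to 584), with 1 at an unadjusted p under 0.05 and 0 by edgeR and by DESeq2. The part of these lists in the values below was not tested, and in such bulk RNA a change in the number of cells of a type cannot be told apart from a change in RNA per cell.

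RRAD, the cardiac brake on L-type channels, was the most abundant member and differed between genotypes by less than its spread between replicates. Its normalized counts were 4583, 6037 and 4097 in WT and 4884, 4085 and 5187 in STK25KO. The ranges overlapped: the highest of the 6 values was a WT library and the lowest a knockout library, with the others mixed in between. The means were 4906 ± 1009 and 4718 ± 569 (SD, n = 3 each), a difference of -0.04 on the log2(normalized count + 1) scale with an SE of 0.20. Between 3034 and 7926 reads stood behind each value. Per kilobase of transcript, RRAD ranked at percentile 92.9 to 95.2 among genes with a read in the same library. The gene lies on chromosome 16 at 66921679 to 66925644 (GRCh38, minus strand).

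GEM, the mitogen-induced member, was higher in every STK25KO library than in every WT library. Its normalized counts were 196, 136 and 221 in WT and 496, 965 and 835 in STK25KO. The lowest knockout value, in replicate 1, was still above the highest WT value, and the genotypes did not overlap. The means were 185 ± 43.7 and 765 ± 242 (SD, n = 3 each), which is 4.14-fold, or 2.02 on the log2 scale with an SE of 0.36. Without the 2 libraries that stood apart the difference was 2.10. Between 130 and 939 reads stood behind each value. Per kilobase, GEM ranked at percentile 48.3 to 52.3 in WT and 63.5 to 71.9 in STK25KO. The gene lies on chromosome 8 at 94249253 to 94262350 (minus strand).

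REM2, the member known from neurons, was low in all libraries. Its normalized counts were 45.3, 86.8 and 61.2 in WT and 72.5, 20.1 and 25.8 in STK25KO. Knockout replicates 2 and 3 were the lowest of the 6, but knockout replicate 1 was above both WT replicates 1 and 3, so the genotypes overlapped. The means were 64.5 ± 20.9 and 39.4 ± 28.7 (SD, n = 3 each), a log2 difference of -0.87 with an SE of 0.61. Single libraries moved it: it was -1.41 without STK25KO replicate 1 and -0.51 without STK25KO replicate 2. Only 18 to 114 reads stood behind each value. REM2 lies on chromosome 14 at 22883165 to 22887686 (plus strand).

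REM1 had 0 reads in all 6 libraries. A count of 0 allows up to 3 reads, or 1.91 to 4.53 normalized counts depending on the library, for counting error only. REM1 lies on chromosome 20 at 31475293 to 31484905 (plus strand), and DEFB124, the beta-defensin gene that overlaps it, was also at 0 in all 6. On the side of DEFB124, DEFB121 and DEFB122 were at 0 too, and DEFB123 had 3 reads in WT replicate 2 and 0 in the others. On the other side, reads were assigned to HM13 (means of 4700.3 and 3701 normalized counts in WT and STK25KO) and to ID1 (3485 and 2143), and COX4I2, farther out, was at 0. Of the 3 members with reads, GEM was the 1 whose genotypes did not overlap, where 33.4% of all genes tested did not. As the family was chosen with this contrast known, nothing is read from that share.

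**Figure D1:**
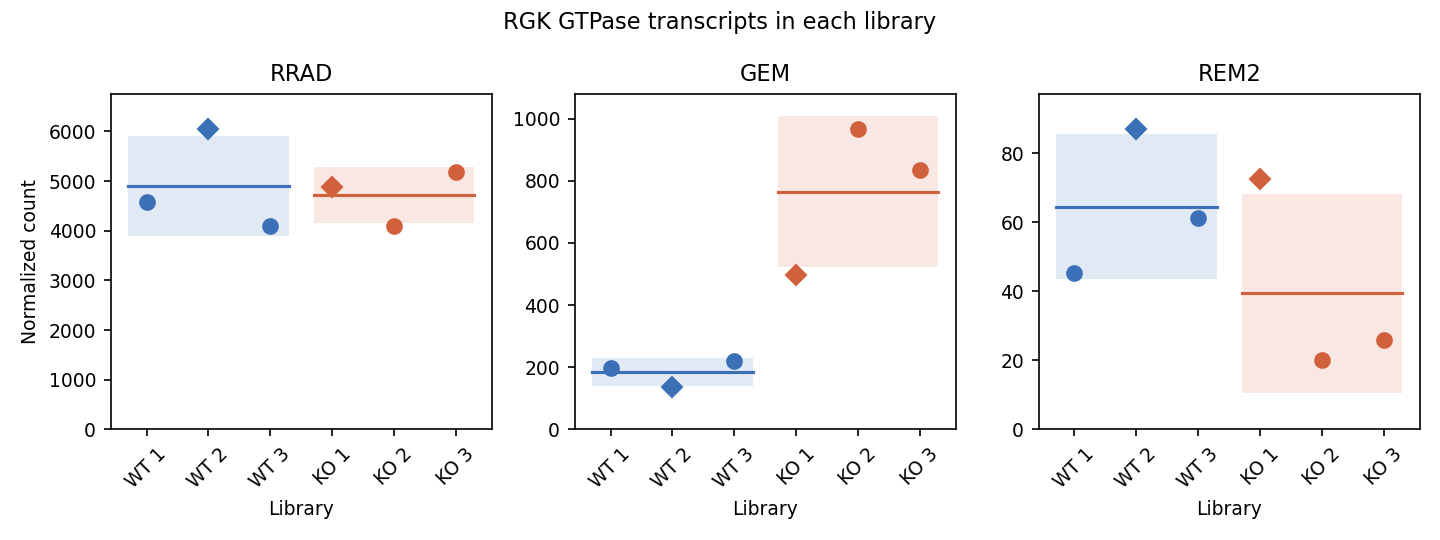
Normalized counts of RRAD, GEM and REM2 (vertical axes, each from 0) in each library (horizontal axes; KO, STK25KO). Points are libraries, diamonds the 2 libraries that stood apart, lines the genotype means and bands ± 1 SD (n = 3). RRAD overlaps between genotypes, the 3 GEM values of STK25KO (496 to 965) lie above all 3 of WT (136 to 221), and REM2 overlaps through STK25KO replicate 1; REM1, at 0 throughout, is not drawn.

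The 2 libraries that stood apart also took the same place in both genotypes for GEM and REM2. WT replicate 2 and STK25KO replicate 1 were the lowest of their genotype for GEM and the highest for REM2. After each genotype's mean was subtracted, GEM and REM2 had a Pearson correlation of -0.92 over the 6 libraries on the log2 scale. The same measure was -0.70 for RRAD with GEM and 0.48 for RRAD with REM2. These 6 points share their libraries and the same pair of outlying samples, and the correlations are given as a description.

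The make-up of the family shifted toward GEM although RRAD stayed its main part. Levels per kilobase of mean annotated transcript length were used, since counts grow with length. RRAD gave 96.4%, 97.6% and 95.4% of the summed RGK level in the WT libraries and 92.3%, 84.9% and 89.2% in STK25KO. GEM gave 3.05%, 1.63% and 3.81% in WT and 6.92%, 14.8% and 10.6% in STK25KO. The shares of GEM did not overlap between genotypes, and their means were 2.83% ± 1.11 and 10.8% ± 3.96 (SD, n = 3 each). REM2 stayed under 1% in every library, at 0.716% ± 0.151 and 0.422% ± 0.308. The ratio of RRAD to GEM ran from 25.1 to 59.9 in WT and from 5.73 to 13.3 in STK25KO. The summed RGK level itself was close, at 5498 ± 1068 normalized counts per kilobase in WT and 5744 ± 546 in STK25KO.

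Set against the beta subunits that RGK proteins bind, the family stood higher on average in STK25KO, but the libraries overlapped. The ratio of the summed RGK level to the summed level of the CACNB genes per kilobase was 2.48, 3.94 and 1.89 in WT and 5.56, 3.40 and 4.71 in STK25KO. WT replicate 2 was above STK25KO replicate 2. The means were 2.77 ± 1.05 and 4.56 ± 1.09 (SD, n = 3 each). The denominator moved more than the numerator, with summed CACNB levels of 2079 ± 380 and 1299 ± 253 per kilobase. With the longest transcript of each gene as its length, the mean ratios were 4.56 and 7.61, so the ratio is to be read between genotypes and not as a number of molecules.

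**Figure D2:**
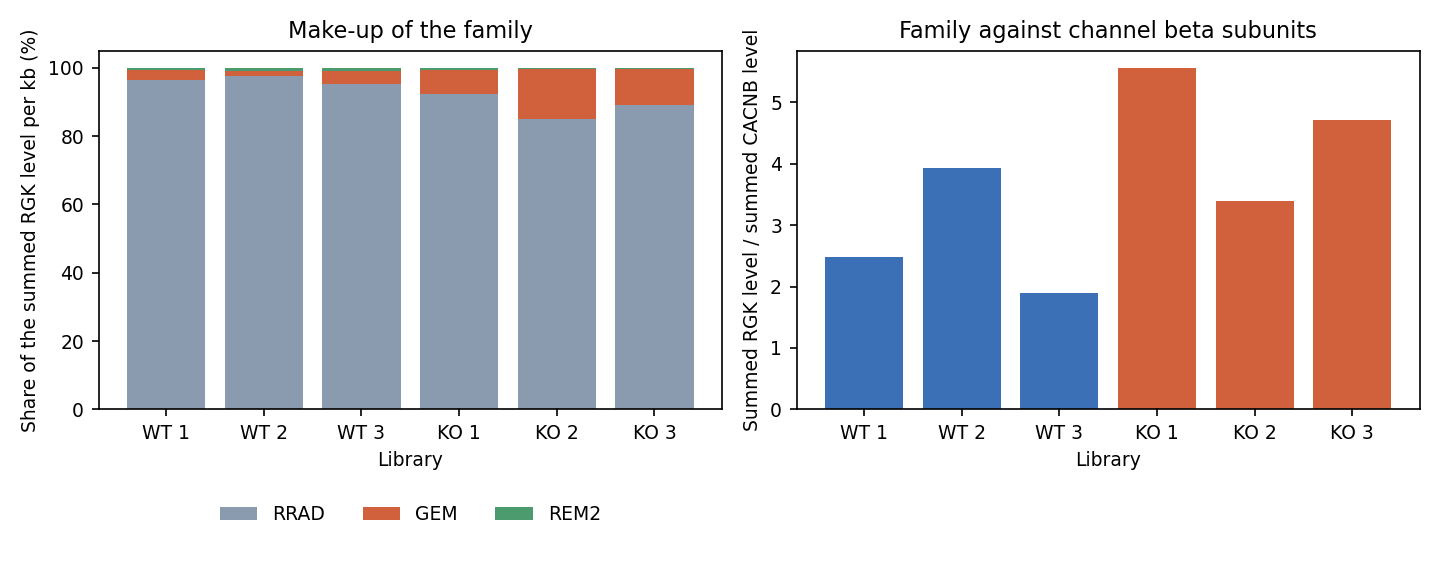
Left, share of each RGK gene in the summed RGK level per kilobase of mean transcript length (%), by library, with GEM between 1.63% and 3.81% in WT and between 6.92% and 14.8% in STK25KO. Right, ratio of that sum to the summed CACNB level per kilobase, by library (blue WT, orange STK25KO), with WT replicate 2 (3.94) above STK25KO replicate 2 (3.40).

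Among the beta subunits, the direct partners of the family, CACNB1 and CACNB2 were lower in the knockout libraries without passing the test. CACNB2, the main cardiac beta subunit, was at 3012, 2032 and 3403 normalized counts in WT and 895, 2027 and 1703 in STK25KO. Its highest knockout value was just under its lowest WT value, and its log2 difference was -0.92 (SE 0.35, limma adjusted p = 0.131). CACNB1, the form of skeletal muscle, was at 1069, 1219 and 1406 in WT and 758, 814 and 844 in STK25KO, with no overlap and a difference of -0.60 (SE 0.20, adjusted p = 0.0912). CACNB3 (0.30, adjusted p = 0.681) and CACNB4 (0.38, adjusted p = 0.781) overlapped, the latter at 9.06 to 35.6 normalized counts. Limma called 0 of the 4, with 2 at an unadjusted p under 0.05. EdgeR also called 0, and DESeq2 called 1, CACNB1, as lower. The median difference of the 4 was -0.15, beside 0.0052 for all genes tested.

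Of the pore subunits of high-voltage-activated channels, which RGK proteins restrain, 1 of 6 tested rose, or 16.7%. Over all genes tested, 5.97% were called higher and 12.8% in either direction. CACNA1S, the L-type pore of skeletal muscle, was at 7.55, 8.38 and 2.55 in WT and 94.1, 39.0 and 77.3 in STK25KO. All 3 knockout values were above all WT values, and the difference was 3.34 (SE 0.65, adjusted p = 0.0148), though not past the threshold without STK25KO replicate 3 (adjusted p = 0.0705). CACNA1C, the L-type pore of heart muscle, was far more abundant and differed by 0.42 (SE 0.24, adjusted p = 0.311). Its values of 1693, 1449 and 1599.8 in WT and 2855, 1985 and 1655 in STK25KO overlapped. CACNA1B was also higher with no overlap (0.82, SE 0.34, adjusted p = 0.165), at an unadjusted p under 0.05. The list's median was 0.24, and CACNA1E was too low to be tested.

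Of the T-type pores, which open at low voltage and need no beta subunit, 2 were tested and 1 fell. That is 50%, where 6.79% of all genes tested were lower, and 2 genes are too few to read a share from. CACNA1G went from 500.0, 508 and 646 in WT to 0, 39.0 and 18.7 in STK25KO. The groups were far apart, and the difference was -5.89 (SE 1.22, adjusted p = 0.0193). STK25KO replicate 1 had 0 reads, and the difference ran from -7.03 to -4.29 over the alternatives. With 1 WT library left out the adjusted p was 0.0767 without replicate 1, 0.0533 without replicate 2 and 0.0730 without replicate 3. CACNA1H was at 157, 220.1 and 192 in WT and 667, 269 and 289.7 in STK25KO, a difference of 0.99 that did not pass (adjusted p = 0.152). CACNA1I had no read.

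The remaining auxiliary subunits, the alpha2delta and gamma proteins, had 6 of 12 genes tested. Limma called 0 of them, with 2 (CACNA2D2 and CACNG6) at an unadjusted p under 0.05. EdgeR called 0 and DESeq2 called these 2, both lower. CACNG6, the most abundant, was at 227, 331 and 441 in WT and 173, 169 and 136 in STK25KO (-1.01, SE 0.32, adjusted p = 0.084). Their median was -0.09.

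**Figure D3:**
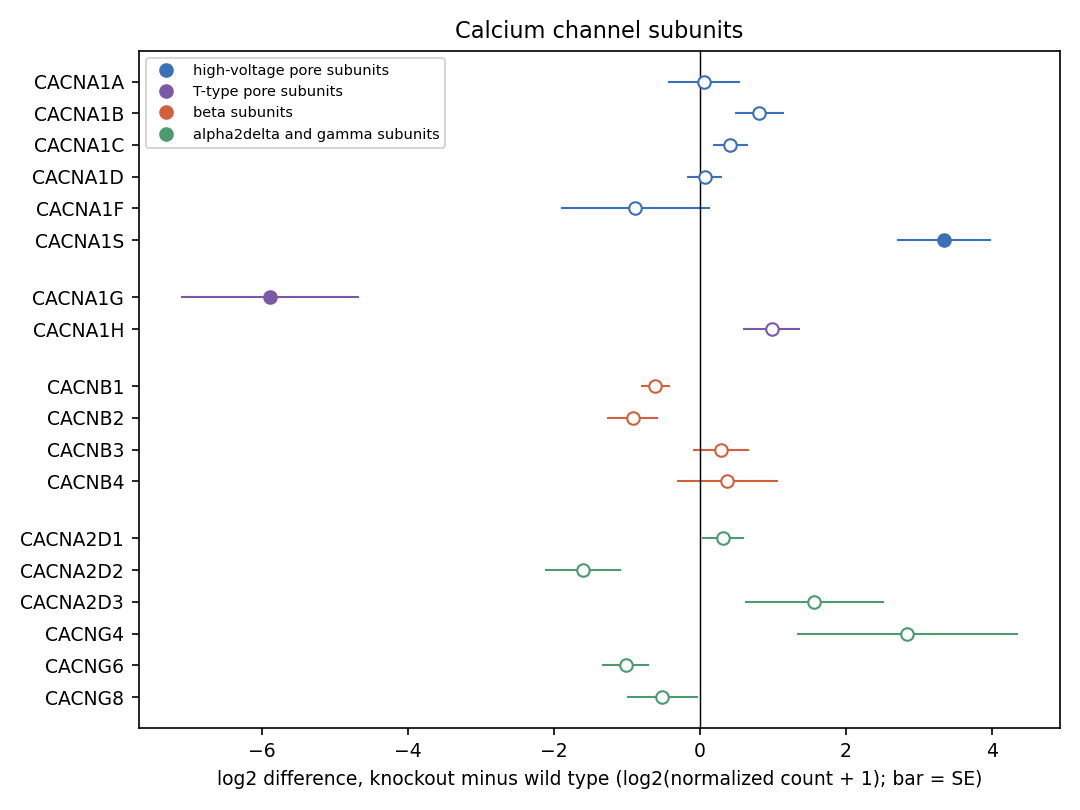
Difference between STK25KO and WT (horizontal axis, log2 of normalized count + 1) for each calcium channel subunit tested, grouped by class. Points are limma estimates with bars of 1 SE, filled where the adjusted p was under 0.05: CACNA1S at 3.34 and CACNA1G at -5.89; the 4 beta subunits are open.

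Of the other proteins that RGK GTPases bind, 18 were tested and 1 rose, or 5.56%, where 5.97% of all genes tested were higher. CAMK2D, the main cardiac form of the calcium and calmodulin dependent kinase, went from 6992, 4160.2 and 7339 in WT to 10938, 21459.8 and 17402 in STK25KO. The knockout values were all higher and the difference was 1.42 (SE 0.32, adjusted p = 0.0273). That call held without STK25KO replicate 1 and was lost in each of the other 5 fits that left out 1 library (all 3 WT replicates and STK25KO replicates 2 and 3; adjusted p of 0.0624 to 0.105). CALM2, a calmodulin gene and the most abundant of the list, differed by -0.11 (SE 0.22, adjusted p = 0.807). The median of the list was 0.14.

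The beta-adrenergic route that ends in phosphorylation of RRAD had 2 of 14 tested genes lower, or 14.3%, where 6.79% of all genes tested were lower and 12.8% were called in either direction. ADCY6, a cardiac adenylyl cyclase, fell from 2965, 2066 and 2745 to 1664, 1146 and 1394 (-0.89, SE 0.23, adjusted p = 0.0433). PDE4B, a phosphodiesterase that degrades cAMP, fell from 49.8, 86.8 and 103 to 26.7, 16.7 and 15.1 (-1.96, SE 0.49, adjusted p = 0.0384). In both genes the lowest WT value was above the highest knockout value. The call of PDE4B held only without STK25KO replicate 1 (adjusted p of 0.072 to 0.155 in the other 5 fits). That of ADCY6 held only without STK25KO replicate 1 or WT replicate 2 (0.127 to 0.182 in the other 4). GNAS, the stimulatory G protein and the most abundant gene of the route, differed by 0.03 (SE 0.20, adjusted p = 0.949), and the median was -0.13. The receptor gene ADRB1 was too low to be tested.

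GEM is induced early by cAMP, calcium and serum in many cells, and 16 other early response genes could be tested beside it. Of these 1 rose, 3 fell and 12 did not pass, with a median of 0.55. The 4 calls are 25% of the list, where 12.8% of all genes tested were called, and DESeq2 called 4 higher and 3 lower. BDNF, a growth factor gene that responds to calcium, rose from 52.9, 58.6 and 37.0 in WT to 577, 362 and 406 in STK25KO (3.15, SE 0.34, adjusted p = 0.00142). EGR1, a transcription factor induced by serum, fell from 116, 110.4 and 112 to 7.63, 32.3 and 9.78 (-2.97, SE 0.59, adjusted p = 0.0163). JUN fell from 2249, 1827 and 2136 to 977, 1074 and 1273 (-0.90, SE 0.20, adjusted p = 0.0237), and ATF3, a stress-induced factor, from 862, 869.8 and 1016 to 435, 421 and 439 (-1.08, SE 0.20, adjusted p = 0.0132). None of these 4 genes overlapped between genotypes. The calls of EGR1 and ATF3 were lost without WT replicate 1, WT replicate 3 or STK25KO replicate 3 (adjusted p of 0.0623 to 0.0773 and 0.0547 to 0.0698). That of JUN was lost without these or STK25KO replicate 2 (0.0568 to 0.121), and that of BDNF held in all 6. CREM, the cAMP-responsive factor with the highest level, differed by 0.48 (SE 0.23, adjusted p = 0.234).

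RRAD is also known as a target of p53. Of 12 other p53 targets tested, 10 fell in STK25KO, where 6.79% of all genes tested were lower, with a median of -2.05, while RRAD differed by -0.04 with an SE of 0.20. Whether RRAD differs from that list was not tested, and the list was already known to be lower here when it was drawn up. CDKN1A, which halts the cell cycle, went from 21874, 21721 and 24553 in WT to 985, 1403 and 1302 in STK25KO (-4.22, SE 0.20, adjusted p = 6.44e-05). EDA2R, a death-domain receptor, was at 746, 517 and 1079 in WT and at 1.27, 1.11 and 0 in STK25KO, at most 1 read a library. GDF15, a secreted stress factor, went from 1009, 840.1 and 964 to 1.27, 41.2 and 25.8 (-6.09, SE 0.99, adjusted p = 0.00751). The knockout values of these 3 genes lay far under every WT value. BTG2 (-2.53, adjusted p = 0.00156), SESN1 (-2.51, 0.01), PHLDA3 (-1.59, 0.00176), ZMAT3 (-1.35, 0.0219) and MDM2 (-0.86, 0.0319) also fell. So did FAS (-3.73, 0.044) and TP53I3 (-0.72, 0.0414). Calls of CDKN1A, EDA2R, GDF15, BTG2 and PHLDA3 held whichever library was left out. SESN1 was lost without WT replicate 1 (0.0553), FAS without any 1 WT replicate (up to 0.150) and ZMAT3 without WT replicate 1, WT replicate 3 or STK25KO replicate 3 (up to 0.0925). FAS had 14, 25 and 1 reads in STK25KO. Its call was also lost with edgeR, which called 9 of the targets. The same held with a pseudocount of 0.1, no filter, quantile normalization or a replicate block. With 1 library left out, MDM2 was lost without WT replicate 1, WT replicate 3, STK25KO replicate 2 or STK25KO replicate 3 (up to 0.154). Among the same fits TP53I3 held only without STK25KO replicate 1 (up to 0.156 in the others).

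Calcium entering through these channels is amplified by release from the sarcoplasmic reticulum, and of 11 tested genes of release and removal 1 rose and 1 fell. That is 18.2%, where 12.8% of all genes tested were called. CASQ2, the cardiac calcium store protein, was at 245, 277 and 348 in WT and 455, 1317 and 1343 in STK25KO (1.69, SE 0.43, adjusted p = 0.0416). PLN, which restrains the calcium pump, was at 53745, 61557 and 51495 in WT and 34273, 31287 and 32532 in STK25KO (-0.76, SE 0.20, adjusted p = 0.0459). Neither gene overlapped, but both calls held only without STK25KO replicate 1 and were lost in the other 5 fits that left out 1 library (adjusted p of 0.0914 to 0.150 and 0.094 to 0.176). The median of the list was 0.27.

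The shift of GEM was set beside the rest of the RAS branch of small GTPases, of which 28 of 32 were tested. Of these 4 rose and 1 fell, which is 17.9% beside 12.8% of all genes, with a median of 0.27. RASD1, a GTPase induced by glucocorticoids, rose from 613, 735 and 531 in WT to 1538, 1408 and 1809 in STK25KO (1.34, SE 0.22, adjusted p = 0.00751) and held whichever library was left out. RASD2, its relative, rose from 58.9, 19.8 and 82.3 to 142, 245 and 258 (2.15, SE 0.56, adjusted p = 0.0448). RAP2C (0.94, adjusted p = 0.0254) and RASL11B (0.83, 0.0461) rose, and RAP2B (-0.99, 0.0423) fell. RAP2C, RASD2 and RASL11B were called only without STK25KO replicate 1 among the 6 fits that left out 1 library, and RAP2B in none of them (adjusted p of 0.0528 to 0.165 where lost). RHEB, an activator of mTOR signalling and the most abundant, differed by -0.67 (SE 0.20, adjusted p = 0.0659). The difference of GEM, 2.02, lay within the range of these 28 genes.

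**Figure D4:**
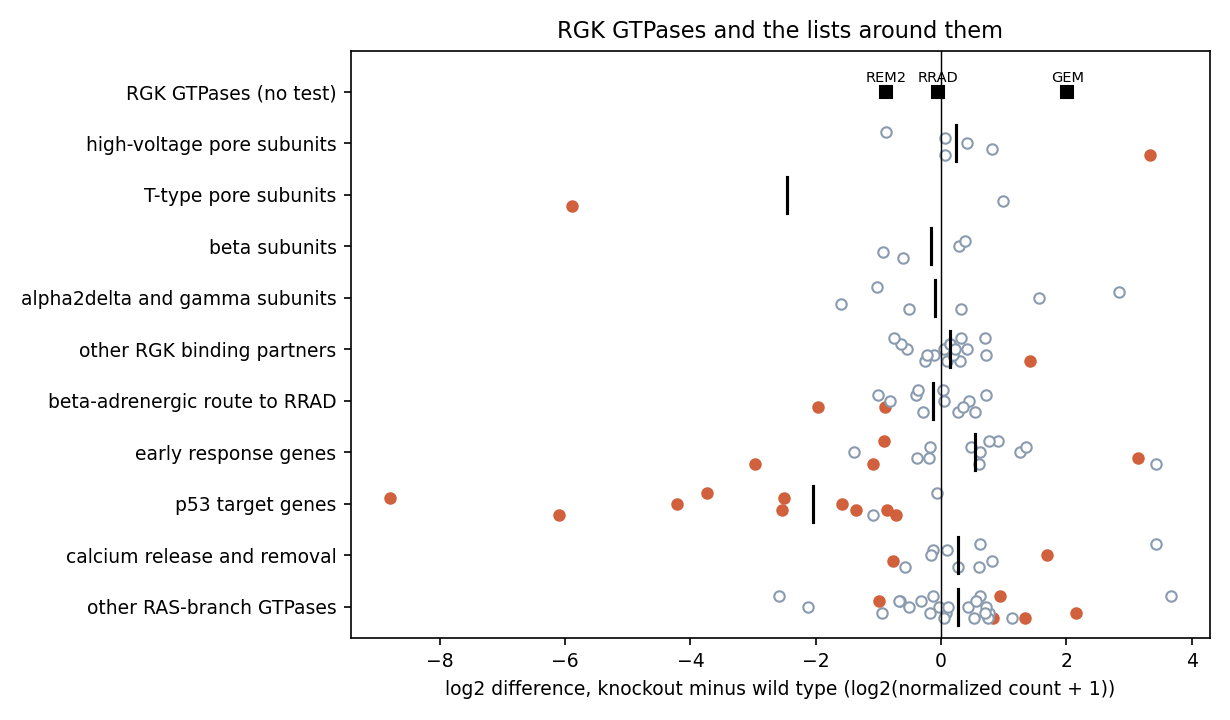
Differences between STK25KO and WT (horizontal axis, log2 of normalized count + 1) for RRAD (-0.04), GEM (2.02) and REM2 (-0.87), drawn as black squares with no test, above 10 gene lists (rows). Circles are genes tested, filled where the limma adjusted p was under 0.05, and black bars are list medians, lowest for T-type pores and, among lists of more than 2 genes, for p53 targets (-2.05); the leftmost point, EDA2R, depends on the pseudocount since STK25KO had at most 1 read a library.

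For the genes beside the members on the chromosome, the 3 nearest tested on each side were taken for each member. For GEM these were TMEM67, PDP1, CDH17, RAD54B, FSBP and VIRMA, within 430.0 kb, with differences of -0.97 to 0.29. For RRAD they were DYNC1LI2, NAE1, PDP2, CIAO2B, CES2 and CES3 (-0.74 to 0.82), and for REM2 MRPL52, MMP14, LRP10, RBM23, PRMT5 and HAUS4 (-0.68 to 0.97). Limma called 0 of the 6 around each of these, with 0, 0 and 2 at an unadjusted p under 0.05. EdgeR called 0, and DESeq2 called 0, 0 and 2, the 2 being HAUS4 and LRP10 near REM2. For REM1 they were FAM182B, FRG1CP, FRG1BP, HM13, MCTS2P and ID1, the first 3 of them 5607, 2873 and 1076 kb away. Of the 24, 1 was called, where 12.8% of all genes tested were. FRG1CP, a pseudogene copy, was lower by the fit (-5.37), and its reads may be split with near-identical copies.

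The genes most like each member over the 6 libraries were named by Pearson correlation of log2(normalized count + 1), as a description. For GEM they were PCYT2 (0.998), LLGL2, LRRC14B, TDRP and CDH13, and 34 genes exceeded 0.99. For RRAD they were WDR83 (0.992), MRPL9 (0.982), PLAAT1, RDH14 and GINS3, and for REM2 PNMT (0.992), GALNT8, C5orf46, ESRRB and ADAM8. The 5 genes named for GEM were all called higher in STK25KO (limma differences of 1.04 to 2.01). Their correlations with GEM thus include the genotype difference already known when the family was chosen. Once genotype means had been subtracted, SLC39A9, SLC25A23 and MCMBP were closest to GEM, and 272 genes exceeded 0.99. WDR83, CA5BP1 and ATP6V1D were then closest to RRAD, and ZFPL1, AC141586.1 and CTDSP1 to REM2. With 6 libraries, 2 of which stood apart, many genes reach such values.

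Of the members, the RefSeq promoter table (GRCh38.p14) held REM2, with 250 bases before and 50 after its start. Since many early response genes are known for cAMP response elements, that window was searched on both strands for TGACGTCA, for its core TGACG, which the longer motif contains, and for the CArG box of serum response factor. REM2 held none of them, where 1.98%, 25.0% and 1.29% of 27305 promoters did. This says only that these letters are not in that window.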

How the data were processed

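RNA of WTC11 cardiomyocytes at day 15 (3 WT, 3 STK25KO) was isolated with RNeasy columns and made into libraries with the Clontech Ultra Low v4 and Nextera XT kits, per the labels' protocols. The submitters' processing notes name bcl2fastq 2.19, kallisto 0.44.0, DESeq2 1.28.1 and GRCh38. The annotation and the handling of strand are not given in the sources used here. The authors deposited 1 table of normalized counts for 35793 genes, a signal that is not a raw count. In each library all values (100%) were whole multiples of the value of 1 read, within 0.01, so whole reads were recovered (22443904 to 53224112 a library). No column was left unused.

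Genes were tested where their mean was 10 or more (15536); limma 3.58.1 was fitted in R 4.3.3 to log2(normalized count + 1) with a trended prior, without a block, with Benjamini-Hochberg adjustment over all genes tested and a threshold of 0.05. A fold change on this scale understates that of low genes. Alternatives were other pseudocounts (0.1, 10), filters (none, 50) and scalings, a replicate block, robust eBayes, each library left out in turn, and edgeR 4.0.16 and DESeq2 1.42.0 on the recovered reads, which called 1864 and 3210 genes. Leaving out both libraries that stood apart was added after seeing the data. Replicate numbers were not taken to pair libraries (correlations of deviations of -0.23, -0.40 and 0.17). Fits were also run on simulated counts with known changes and no outlying libraries, as a check of the code and not of the calls made here. Positions and lengths are from GENCODE 29 on GRCh38 (34746 genes matched).

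One gene of the beta-adrenergic list is not reported here and was left out of that list's counts. The members and all lists were chosen with earlier results of these data known. Named genes were the members, STK25, each pathway gene called, the most abundant of each list, all CACNB genes and CACNA1C, the neighbours, and the genes most correlated with each member. P-values measure the spread between replicate cultures of 1 pair of lines.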

Additional observations from a re-analysis of the deposited data

How the results depend on the processing

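GEM kept its direction under all 14 alternatives run (1.74 to 2.16, and 1.82 to 2.30 with 1 library left out), as did REM2 (-1.18 to -0.68, and -1.41 to -0.51). RRAD stayed near 0 (-0.16 to 0.12 with 1 library left out) except with equal totals (-0.33), where the median of all genes was -0.27. Precision for REM2 and CACNB4 is limited by few reads, and that for REM1 by the floor of 3 reads.

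Counts of calls changed with the setting, and the cause was not tested. They rest on a threshold and cannot be compared in this with the members' differences, which had no test. With the longest transcript as length, the ratio of RGK to CACNB levels was 4.56 in WT and 7.61 in STK25KO. Replicate numbers were not taken to pair the libraries. With a replicate block 798 genes were called, including 6 p53 targets, 2 early response genes, and 0 high-voltage pores, RGK partners, beta-adrenergic, calcium release and RAS-branch genes, and STK25 missed the threshold (-1.12, adjusted p = 0.0684). Without the 2 libraries that stood apart, 4483 genes were called, including 1 beta subunit, 1 alpha2delta or gamma gene, 6 partners, 4 beta-adrenergic, 8 early response, 5 calcium release, 15 RAS-branch and 6 neighbouring genes. DESeq2 called 3210, including 1 beta subunit, 2 alpha2delta or gamma genes, 2 partners, 7 early response, 4 calcium release, 9 RAS-branch and 3 neighbouring genes. Equal totals gave 2 alpha2delta or gamma genes, 2 partners, 1 calcium release gene and 3 neighbours. CAMK2D was not among these partners, and its call was also lost with quantile normalization. Equal upper quartiles and robust eBayes each gave 1 calcium release gene. No filter gave 1 calcium release, 0 beta-adrenergic and 2 RAS-branch genes, and a pseudocount of 0.1 gave 0 T-type pores. A mean of at least 50 gave 0 high-voltage pores and 1 beta-adrenergic gene. In that setting CACNA1S (mean of 38.1) and PDE4B (49.8) fell under the filter and were not tested.

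With 1 library left out, calls ran from 796 to 2181 over all genes, 0 to 1 high-voltage and T-type pores, 0 to 0 beta subunits, 0 to 1 alpha2delta or gamma genes, 0 to 2 partners, 0 to 2 beta-adrenergic genes, 1 to 5 early response genes, 5 to 11 p53 targets, 0 to 3 calcium release genes, 1 to 7 RAS-branch genes and 1 to 2 neighbours, and STK25 ran from -1.24 to -1.05. Signs of 4 genes that were not called turned: GNAS was -0.018 with equal upper quartiles, -0.25 with equal totals, -0.37 with quantile normalization and -0.0051 to 0.081 with 1 library left out, CALM2 -0.18 to 0.016 and CACNB4 -0.16 to 0.67 with 1 library left out, and CACNB3 -0.10 without the 2 libraries that stood apart. Of 681 values of 38 named genes under alternatives, 548 kept their direction and side of the threshold.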
